A study of Mus musculus with 24 samples.

Results

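Axon guidance ligands and their receptors were examined for binding by 3 autism-associated transcriptional regulators (TRs) in the embryonic mouse cortex. The set held every autosomal protein-coding gene of GENCODE vM21 whose symbol names a netrin, DCC or UNC5 receptor, Slit, Robo, class 3 to 7 semaphorin, plexin, neuropilin, ephrin or Eph receptor. The rule used names alone and no measured value, and it found 66 of 20807 autosomal protein-coding genes, of which 34 encode ligands and 32 encode receptors. Plxna3, Plxnb3 and Efnb1 lie on the X chromosome and fell outside the rule.

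The tissue was untreated cortex of wild-type (WT) mouse embryos at E15.5 and E18.5. According to the methods of the study, the mice were kept on a CD1 background. Chromatin immunoprecipitation and sequencing (ChIP-seq) was performed for ARID1B, a DNA-binding subunit of the BAF chromatin remodelling complex, for FOXP1, a forkhead factor, and for TCF7L2, a Wnt pathway factor that the sample labels call TCF4. TCF4 is also the symbol of an unrelated basic helix-loop-helix (bHLH) protein. The labels and the study's methods name the antibody target differently, and TCF7L2 is used here after the methods. Each TR and stage had 2 ChIP libraries from biological replicates and 2 input libraries, 24 libraries in all. The 6 deposited peak lists, 1 for each TR and stage, are each attached to the sample labelled Rep1. Per the methods, peaks were called on merged replicates against input, which the files themselves do not show. In either case no spread between replicates could be computed and no test was made. Whole cortex mixes neurons, progenitors, glia and vessels, and a peak does not say in which of these cells the protein was bound.

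The lists held between 24890 peaks (FOXP1 at E18.5) and 71442 peaks (ARID1B at E15.5). The smaller library behind each list, recovered from the tie between the fold enrichment and the p-value of every peak, held 57.3 to 80.7 M reads in 5 of the lists and 26.3 M in that of FOXP1 at E18.5. Fewer FOXP1 peaks at E18.5 and lower depth cannot be told apart. Promoters of 10 of 11 cortical marker genes carried a peak in all 6 lists (Fezf2 lacked FOXP1 at E18.5). Of 5 endothelial markers only Cdh5 had a promoter peak, in 1 list at 2.91-fold. Of 5 microglial markers only Tmem119 had one, in 5 lists, and of 4 liver markers none did.

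Growing axons read guidance cues through receptors on the growth cone. Netrins attract through DCC and repel through UNC5 receptors, Slits repel through Robo receptors, semaphorins act through plexins and their neuropilin co-receptors, and ephrins and Eph receptors signal in both directions between touching cells. In the cortex these systems steer callosal and corticofugal axons, thalamocortical afferents and migrating neurons.

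The tallest ARID1B peaks in these genes lay inside the genes, mostly in introns, and touched no promoter. The 200 bp around the ARID1B summit at E18.5 is shown for 5 genes with such a peak at both stages (Robo1, Sema3a, Robo2, Unc5d and Epha7) and for Slit3, whose promoter had no ARID1B peak at E15.5. They were chosen after their values were seen, from windows free of annotated exons. Sequences are the plus strand of GRCm38 (mm10), and capitals mark CAGATG or its complement CATCTG, an E-box of the kind bHLH factors bind.
Robo1 chr16:72511041-72511240: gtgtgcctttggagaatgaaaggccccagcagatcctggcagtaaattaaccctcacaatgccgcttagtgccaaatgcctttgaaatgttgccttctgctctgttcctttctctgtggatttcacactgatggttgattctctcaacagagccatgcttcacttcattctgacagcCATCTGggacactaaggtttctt
Sema3a chr5:13421418-13421617: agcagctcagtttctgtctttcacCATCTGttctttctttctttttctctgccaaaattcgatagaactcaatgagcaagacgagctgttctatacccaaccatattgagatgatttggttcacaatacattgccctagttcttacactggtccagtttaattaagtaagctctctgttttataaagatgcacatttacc
Robo2 chr16:74090067-74090266: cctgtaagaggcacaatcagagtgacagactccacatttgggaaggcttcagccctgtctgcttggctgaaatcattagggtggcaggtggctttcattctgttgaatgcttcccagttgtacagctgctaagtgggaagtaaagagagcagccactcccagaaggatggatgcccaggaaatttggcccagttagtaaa
Unc5d chr8:28770639-28770838: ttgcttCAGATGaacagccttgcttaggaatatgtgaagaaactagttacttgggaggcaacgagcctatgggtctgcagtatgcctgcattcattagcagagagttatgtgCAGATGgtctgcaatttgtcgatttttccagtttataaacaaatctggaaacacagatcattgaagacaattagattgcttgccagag
Epha7 chr4:28895580-28895779: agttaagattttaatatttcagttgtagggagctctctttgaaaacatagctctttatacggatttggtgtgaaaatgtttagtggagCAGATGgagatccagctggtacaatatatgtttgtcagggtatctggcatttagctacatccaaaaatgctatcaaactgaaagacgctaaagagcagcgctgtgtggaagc
Slit3 chr11:35556222-35556421: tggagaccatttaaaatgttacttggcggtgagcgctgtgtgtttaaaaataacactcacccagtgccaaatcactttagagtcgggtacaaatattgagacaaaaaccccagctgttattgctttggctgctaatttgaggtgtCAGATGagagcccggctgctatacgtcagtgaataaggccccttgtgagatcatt
The windows of Robo1, Sema3a, Epha7 and Slit3 held 1 such E-box, that of Unc5d held 2, and that of Robo2 held 0. Around the E15.5 summits of the same peaks Robo1 held 0 and Unc5d 3, and the other 4 windows held the same number as at E18.5. Some ARID1B peaks taller than that of Slit3 at E18.5 are not shown. Of these, the windows of Epha3, Efnb2 and Epha5 held 0 such E-boxes, that of Sema6d 1 and that of Sema5a 2.

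A promoter was taken as the 2000 bp upstream of any annotated transcription start site (TSS) of a gene, and a gene was counted as bound when a peak shared at least 1 base with it. Nearly all guidance genes were bound by every TR. At E15.5, ARID1B had a promoter peak at 61 of 66 genes (92.4%, against 60.9% of all 20807 genes), FOXP1 at 64 (97%, against 63.4%) and TCF7L2 at 60 (90.9%, against 59.1%). At E18.5 the counts were 62 for ARID1B (93.9%, against 59.4%), 57 for FOXP1 (86.4%, against 56.7%) and 64 for TCF7L2 (97%, against 63%). Promoter peaks of all 3 TRs were present in 58 genes at E15.5 (87.9%, against 57.4%) and in 57 at E18.5 (86.4%, against 54.9%). The peaks of the TRs could lie at different start sites of a gene. In all 6 lists 55 genes were bound (83.3%, against 53.9%). With only peaks of a −log10 p of at least 15, 30 genes (45.5%, against 34.4%) were bound in all 6 lists.

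Guidance genes have more annotated start sites than other genes, a median of 4 against 3, and so more promoter sequence in which a peak can fall. With only the outermost start site of each gene, 44 of 66 (66.7%) were bound in all 6 lists, against 46.6% of all genes. Among genes of at least 100 kb, a class that holds 32 of the guidance genes, 28 (87.5%) were bound in all 6 lists, against 72.8% of all genes of that length. The distance from the background was smaller in this class, which sets only a lower limit on length. The observed over expected CpG ratio of the promoters had a median of 0.345 in guidance genes and 0.288 in all genes.

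The promoter peaks were close to the usual height for ARID1B and TCF7L2 and lower for FOXP1. Fold enrichment is the ratio of ChIP reads at the summit to the constant background of that list, and a gene was given its highest promoter peak. The 64 bound guidance genes had a median FOXP1 enrichment of 8.42-fold at E15.5, against 10.8-fold over all bound genes, and only 12 of them exceeded that all-gene median. At E18.5 the FOXP1 medians were 7.33-fold and 8.80-fold, and 6 of 57 guidance genes exceeded the latter. Not 1 guidance gene reached the top 10% of FOXP1 promoters at either stage. For ARID1B the medians were 5.17-fold against 5.26-fold at E15.5 and 5.61-fold against 5.75-fold at E18.5. For TCF7L2 they were 5.82-fold against 6.50-fold and 6.24-fold against 6.68-fold. Of the bound guidance genes, 44.3% and 40.3% exceeded the all-gene median for ARID1B at E15.5 and E18.5, 41.7% and 43.8% for TCF7L2 and 18.8% and 10.5% for FOXP1.

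**Figure D1:**
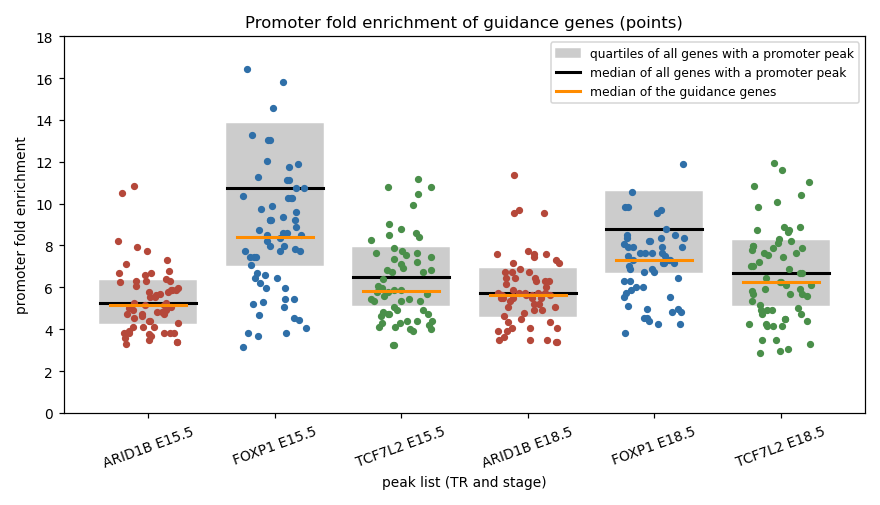
Promoter fold enrichment (y axis) of each guidance gene with a promoter peak (points) in each of the 6 peak lists (x axis). Grey boxes span the quartiles of all genes with a promoter peak, black lines mark their median and orange lines the median of the guidance genes, which lies furthest below the black line for FOXP1 at E15.5 (8.42 against 10.8).

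Among ligands, the ephrins had the highest promoter peak of the set. Ephrin-B2 (Efnb2, ENSMUSG00000001300.16, chr8:8617434-8661242, minus strand), a transmembrane ligand that can signal back into its own cell, had 7.75-fold ARID1B, 16.5-fold FOXP1 and 11.2-fold TCF7L2 enrichment at E15.5. At E18.5 it had 9.54-fold ARID1B, 11.9-fold FOXP1 and 10.8-fold TCF7L2. The counting interval (exact Poisson, 95%) of the FOXP1 value was 13.8 to 19.5 at E15.5 and 9.47 to 14.8 at E18.5, and the intervals overlapped. All 7 ephrin genes were bound in all 6 lists. Efna5, a membrane-anchored ephrin that patterns cortical areas, was bound by ARID1B at 5.26-fold, FOXP1 at 10.8-fold and TCF7L2 at 5.77-fold at E15.5, and in the same order at 5.19-fold, 7.91-fold and 7.01-fold at E18.5.

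Semaphorins were the most varied ligands. Of 20 genes 17 were bound in all 6 lists, and their median enrichment over the lists ran from 3.37-fold (Sema3g) to 10.1-fold (Sema5b). Sema7a, a membrane-linked semaphorin that promotes axon growth through integrins (ENSMUSG00000038264.8, chr9:57940112-57962865, plus strand), had the highest ARID1B promoter of the set, at 10.9-fold (9.03 to 12.9) at E15.5 and 11.4-fold (9.04 to 14.1) at E18.5. These values exceeded those of 98.3% and 98.1% of all bound promoters, whereas its FOXP1 values of 9.24-fold and 6.74-fold exceeded only 37.7% and 24.3%. TCF7L2 was at 8.28-fold and 10.1-fold there. The window around its ARID1B summit at E18.5, upstream of the start site, held neither TGTTTAC, the forkhead core, nor ATCAAAG, the TCF/LEF core, on either strand.
Sema7a chr9:57939401-57939600: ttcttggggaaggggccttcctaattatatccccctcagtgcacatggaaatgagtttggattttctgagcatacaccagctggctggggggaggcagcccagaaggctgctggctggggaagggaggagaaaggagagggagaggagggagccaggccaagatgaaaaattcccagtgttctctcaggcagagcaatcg
Sema5b, a transmembrane semaphorin, had 10.5-fold ARID1B, 9.87-fold FOXP1 and 10.8-fold TCF7L2 at E15.5 and 9.68-fold, 8.5-fold and 10.4-fold at E18.5. Its ARID1B values exceeded those of 98.1% and 95.4% of bound promoters and its FOXP1 values those of 42.2% and 45.7%.

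Of the 7 secreted class 3 semaphorins, which repel or attract cortical axons through neuropilins, 6 had medians over the lists of 5.0-fold or less, and Sema3f, a repellent that acts through Nrp2, had 7.13-fold. The median of the semaphorin genes was 6.30-fold. Sema3b and Sema3c were bound in all 6 lists with medians of 4.23-fold and 5.0-fold. Sema3a had 4.10-fold ARID1B, 6.58-fold FOXP1 and 4.21-fold TCF7L2 at E15.5 and 4.63-fold, 4.24-fold and 5.04-fold at E18.5. Sema3e was bound by ARID1B at both stages (3.48-fold and 3.51-fold) and by FOXP1 at E15.5 (3.67-fold), and TCF7L2 had no peak there. Sema3g, best known from vessels, was bound by FOXP1 at E15.5 (3.80-fold) and by ARID1B and TCF7L2 at E18.5 (3.37-fold and 2.85-fold). In 2 lists the Sema3g peak also touched a promoter of the neighbouring protein-coding gene Nisch. Peaks of some other guidance genes touched promoters of non-coding neighbours, in all 6 lists for Efna4, Efnb2, Nrp1, Sema4c, Sema5a and Unc5c. Sema3d lacked only FOXP1 at E18.5. Sema6a, a transmembrane ligand of plexin-A receptors, had 5.08-fold, 8.35-fold and 7.65-fold at E15.5 and 5.61-fold, 7.33-fold and 8.87-fold at E18.5, in the order ARID1B, FOXP1 and TCF7L2. Sema4a, which acts in immune cells as well as neurons, was bound in all 6 lists, between 2.96-fold and 5.56-fold.

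The 4 netrins were bound in all 6 lists. The archetypal axon attractant Ntn1 was among the weaker promoters, with 3.39-fold ARID1B, 5.19-fold FOXP1 and 4.10-fold TCF7L2 at E15.5 and 4.07-fold, 4.53-fold and 4.49-fold at E18.5. Of the Slits, Slit1 and Slit2 were bound in all 6 lists and Slit3 lacked ARID1B at E15.5. Slit2, the repellent of callosal and corticospinal axons, had 5.26-fold, 7.72-fold and 4.73-fold at E15.5 and 5.61-fold, 6.0-fold and 5.80-fold at E18.5. Slit3 reached only 3.50-fold to 4.38-fold in its 5 lists.

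Eph receptor genes ranged from strongly bound promoters to ones with few peaks. Ephb3 had 8.19-fold ARID1B, 14.6-fold FOXP1 and 10.5-fold TCF7L2 at E15.5 and 9.54-fold, 10.6-fold and 11.1-fold at E18.5. Its highest ARID1B promoter peaks lay at a start site downstream of the one where its highest FOXP1 and TCF7L2 peaks lay. At E15.5 these were at chr16:21210650-21211516 for ARID1B and chr16:21204216-21205705 for FOXP1. Each list held 2 or 3 promoter peaks of Ephb3, so the TRs are not shown to use separate start sites. Ephb2, a receptor that guides commissural axons, had the highest TCF7L2 promoter of the set at E18.5, at 11.9-fold (9.81 to 14.4) after 10.8-fold (8.82 to 13.1) at E15.5, beside 6.68-fold and 5.75-fold for ARID1B and 13.3-fold and 8.80-fold for FOXP1. Epha7, which marks cortical areas and restricts corticothalamic axons, had 6.77-fold, 15.8-fold and 9.01-fold at E15.5 and 7.57-fold, 9.68-fold and 8.87-fold at E18.5. Epha3, Epha4 and Epha5, the main EphA receptors of cortical axons, were bound in all 6 lists with medians of 7.39-fold, 7.24-fold and 7.0-fold over the lists.

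Of the 14 Eph genes 9 were bound in all 6 lists, where 53.9% of all genes and 83.3% of the guidance genes were. The other 5 lacked a promoter peak in at least 1 list. Epha10, a kinase-inactive receptor, had peaks only of ARID1B at E15.5 (3.75-fold) and TCF7L2 at E18.5 (4.49-fold). Epha1 had FOXP1 and TCF7L2 at E15.5 (3.16-fold and 3.27-fold) and TCF7L2 at E18.5 (3.50-fold). Epha2, an epithelial receptor, had ARID1B and FOXP1 at E15.5 (3.39-fold and 5.06-fold) and TCF7L2 at E18.5 (3.28-fold). Epha8 was bound in 4 lists and Epha6 in 5. The lowest fold of any peak in a list was 2.33 to 3.21. A gene without a peak was below what the depth could show and was not shown to be free of the protein.

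Robo4, the Robo receptor of endothelium, was the only guidance gene without a promoter peak in any list, whereas 34.3% of all genes had none. Robo1, which keeps commissural axons responsive to Slit, had 6.33-fold ARID1B, 8.48-fold FOXP1 and 8.80-fold TCF7L2 at E15.5 and 5.33-fold, 6.88-fold and 9.85-fold at E18.5. These peaks lay at an internal start site. Robo2, its partner in corticofugal axons, had 5.17-fold, 7.85-fold and 5.35-fold at E15.5 and 5.61-fold, 4.97-fold and 6.13-fold at E18.5. Robo3, of commissural neurons in hindbrain and spinal cord, lacked FOXP1 at E18.5 and lay between 3.57-fold and 4.49-fold elsewhere. Of the 6 genes set apart as endothelial, epithelial or immune (Robo4, Ephb4, Epha1, Epha2, Sema3g and Sema4a), only Ephb4 and Sema4a, 2 in number, were bound in all 6 lists (53.9% of all genes and 83.3% of the guidance genes were). Of the 21 set apart as cortical (Sema3a, Nrp1, Nrp2, Plxna2, Plxna4, Plxnd1, Sema6a, Robo1, Robo2, Slit1, Slit2, Ntn1, Dcc, Unc5c, Unc5d, Epha3, Epha4, Epha5, Epha7, Efna5 and Efnb2) all 21 were. Both groups were drawn up with earlier results of these data known.

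The netrin receptors of the DCC and UNC5 families were bound in all 6 lists without exception. Dcc, the attractive netrin receptor of callosal axons, had 4.73-fold ARID1B, 7.47-fold FOXP1 and 4.94-fold TCF7L2 at E15.5 and 6.31-fold, 6.44-fold and 4.71-fold at E18.5. Unc5b, a repulsive receptor, had the highest median over the lists of these receptors (8.67-fold), at 5.79-fold, 10.4-fold and 8.59-fold at E15.5 and 6.45-fold, 9.83-fold and 8.76-fold at E18.5. Unc5a was higher than Unc5b in 3 lists, ARID1B at both stages (5.97-fold and 6.73-fold) and FOXP1 at E15.5 (13.0-fold). Unc5d, of upper-layer neurons and their precursors, was at 5.61-fold, 9.24-fold and 5.88-fold and then at 5.05-fold, 7.91-fold and 6.68-fold. The 9 plexin and neuropilin genes were bound in all 6 lists as well. Plxnb1, the receptor of Sema4d, had their highest median over the lists (9.15-fold), at 6.59-fold, 13.0-fold and 9.95-fold at E15.5 and 7.71-fold, 8.36-fold and 11.6-fold at E18.5. Plxnb2 had 6.24-fold, 11.9-fold and 7.75-fold and then 6.73-fold, 9.83-fold and 8.32-fold. The semaphorin co-receptors Nrp1 and Nrp2 had medians over the lists of 5.38-fold and 6.80-fold. Over the lists Plxna2 ranged from 6.68-fold to 11.1-fold, Plxna4 from 4.37-fold to 7.97-fold and Plxnd1, a receptor of Sema3e, from 3.27-fold to 6.33-fold.

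**Figure D2:**
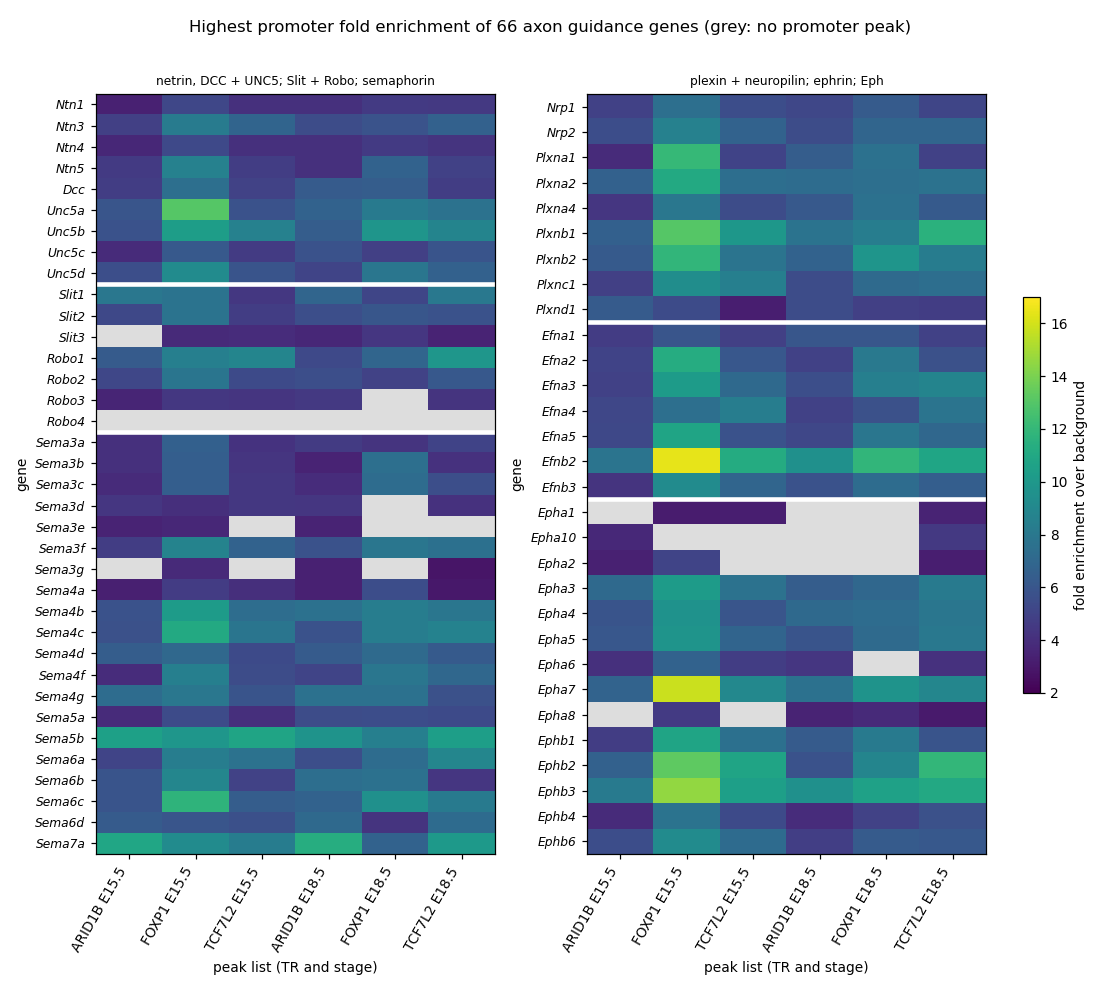
Highest promoter fold enrichment (colour, from 2 to 17) of the 66 guidance genes (rows, by family) in the 6 peak lists (columns). Grey cells have no promoter peak, as in the whole row of Robo4, and the brightest cell is FOXP1 at the Efnb2 promoter at E15.5 (16.5-fold).

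The change between stages followed that of all genes. The ratio of E18.5 to E15.5 promoter enrichment had a median of 1.09 for ARID1B over 59 guidance genes bound at both stages (1.08 over all such genes), 0.793 for FOXP1 over 57 (0.782) and 1.07 for TCF7L2 over 60 (1.06). FOXP1 enrichment was lower at E18.5 at all but 7 guidance genes, beside the lower depth of that list. Over all genes the upper quartile of the ratio was 0.881. FOXP1 promoter peaks were present at E15.5 only at 7 guidance genes (Epha1, Epha2, Epha6, Robo3, Sema3d, Sema3e and Sema3g; 10.6%, against 6.78% of all genes), and at E18.5 only at 0 (against 0.0769%). ARID1B had 2 at E15.5 only (Epha2 and Epha10; against 2.6%) and 3 at E18.5 only (Epha8, Sema3g and Slit3; against 1.16%). TCF7L2 had 0 at E15.5 only (against 0.317%) and 4 at E18.5 only (Epha2, Epha8, Epha10 and Sema3g; against 4.14%). These counts turn on the lengths of the lists. With every list at the size of the shortest, FOXP1 had 2 genes at E15.5 only and 3 at E18.5 only, TCF7L2 had 2 and 2, and ARID1B had 2 and 6. Promoter peaks were then present at 56 and 57 genes for FOXP1, at 58 and 58 for TCF7L2 and at 42 and 46 for ARID1B.

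At few genes did the counting intervals of the stages not overlap. Slit1, a Slit of the forebrain, showed a TCF7L2 value of 4.41-fold (3.21 to 5.94) at E15.5 and 7.99-fold (6.28 to 10.0) at E18.5, a ratio of 1.81. The E15.5 value came from a peak at the start of the gene and the E18.5 value from another one whose summit lay at -2705 bp from it and which only reached into the promoter, so that the ratio compares different sites. For FOXP1, Epha7 had 15.8-fold at E15.5 and 9.68-fold at E18.5, and Unc5a 13.0-fold and 8.21-fold. Their ratios of 0.612 and 0.630 were at the 10.0th and 12.3rd percentile of all genes, below the lower quartile of 0.697. The highest ARID1B ratio was that of Plxna1, a plexin that pairs with neuropilins, at 1.68 (3.84-fold and 6.45-fold), and its intervals overlapped. These genes were chosen after their values were seen.

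Away from promoters the guidance genes held more peaks per length than genes in all. A peak was counted as intragenic when its summit lay within the gene and it touched no promoter of any gene. The guidance genes held 610 such ARID1B, 419 FOXP1 and 196 TCF7L2 peaks at E15.5. At E18.5 they held 596, 87 and 379, in the same order. With every list at the size of the shortest the E15.5 counts became 189, 111 and 127 and the E18.5 counts 177, 87 and 124, so that the higher TCF7L2 count at E18.5 was not seen and the FOXP1 difference was smaller. At least 1 was found in 47 (ARID1B, 30.4% of all genes), 48 (FOXP1, 31.1%) and 46 (TCF7L2, 19.5%) of the 66 genes at E15.5. At E18.5 ARID1B and TCF7L2 had one in 52 (30.1%) and 55 (27.9%), and FOXP1 in 39 (3221 of all 20807 genes). Length weighs on this comparison, since the median guidance gene spans 62.8 kb and the median gene 17.6 kb. Per 100 kb of gene, the guidance genes held 5.17 ARID1B peaks at E15.5 against 2.71 in all genes, 3.55 against 2.32 for FOXP1 and 1.66 against 0.945 for TCF7L2. At E18.5 these were 5.05 against 2.60, 0.738 against 0.537 and 3.21 against 1.90.

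Among genes of at least 100 kb, the 32 guidance genes held, over their summed length, 5.10 ARID1B peaks per 100 kb at E15.5 against 3.18 in all 2372 genes of that length, 3.27 against 2.49 for FOXP1 and 1.34 against 0.848 for TCF7L2. At E18.5 these were 4.81 against 3.03, 0.654 against 0.499 and 2.69 against 1.78. The medians over single genes lay further apart. The median density in the 32 guidance genes was 4.97 ARID1B peaks per 100 kb at E15.5, against 2.32 in all long genes, whose upper quartile was 4.40. FOXP1 stood at 3.18 against 1.73 and TCF7L2 at 1.13 against 0.422. At E18.5 ARID1B stood at 4.83 against 2.19, FOXP1 at 0.609 against 0.258 and TCF7L2 at 2.15 against 0.874. The median fold of the intragenic peaks themselves was close to that of all genes, for example 3.66 against 3.57 for ARID1B at E15.5.

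Overlapping intragenic peaks of all lists were pooled into 832 loci in 62 genes, with 7.05 loci per 100 kb against 4.21 over all genes. Epha1, Robo4, Efna4 and Ntn5 held none. Introns held most of them, with 268 (32.2%) in the first intron of the longest transcript, which makes up 22.3% of gene length, and 467 (56.1%) in later introns, while 21 lay on coding exons. Only 33 loci (3.97%) were in all 6 lists, against 5.05% over all genes, and 306 (36.8%) were in 1 list only, against 40.2%. Loci where all 3 TRs met at the same stage numbered 135 in 38 genes at E15.5 (13.3% of all genes had one) and 54 in 32 genes at E18.5 (9.67%). As a share of the loci of each stage they made up 19.5% at E15.5, against 16.6% over all genes, and 7.49% at E18.5, against 8.69%. In the full lists, among genes of at least 100 kb, a locus of all 3 TRs was present at E15.5 in 28 of 32 guidance genes (87.5%, against 49.8% of long genes). At E18.5 it was present in 22 (68.8%, against 38.3%). This class sets only a lower limit on length, and its guidance genes held more peaks per length.

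Robo1 and Dcc held the most loci. Robo1 (ENSMUSG00000022883.11, chr16:72308306-73046095, plus strand) held 58 loci over 738 kb, and Robo2 (ENSMUSG00000052516.19, chr16:73891839-74411825, minus strand) held 40. Dcc held 44 over 1097 kb, which is about the density of all genes, at 4.01 per 100 kb. Ephb2 held 39, Sema5b 36 and Epha4 35. By density among genes over 50 kb the order was different, with Sema5b at 29.1 loci per 100 kb, Slit1 at 23.7 (34 loci) and Epha4, a receptor for both ephrin classes, at 23.7. Among shorter genes 5 were denser than Sema5b, from Efnb2 at 34.2 to Efnb3 at 49.1. Epha6, the second longest guidance gene at 952 kb, held 20 loci, or 2.10 per 100 kb, which was less than the all-gene density.

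**Figure D3:**
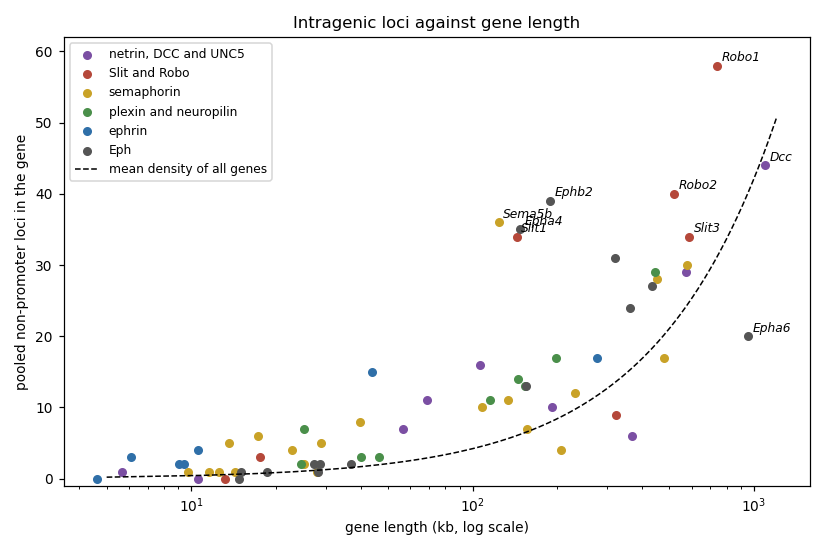
Number of pooled intragenic loci (y axis) against gene length in kb (x axis, log scale) for the 66 guidance genes, coloured by family. The dashed line is the mean density of all genes (4.21 per 100 kb), and Robo1 (58 loci), Ephb2 (39) and Sema5b (36) lie well above it while Epha6 (20) lies below.

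In many guidance genes the highest ARID1B peak was not at the promoter but inside the gene. Of 46 guidance genes with both a promoter peak and an intragenic peak of ARID1B at E15.5, 29 (63.0%, against 42.6% of all such genes) had the higher peak inside, and at E18.5 28 of 51 did (54.9%, against 42.2%). For FOXP1 the counts were 10 of 47 (against 16.2%) and 8 of 37 (against 19.2%), and for TCF7L2 8 of 44 (against 19.3%) and 9 of 54 (against 15.9%). Longer genes have more intragenic peaks from which the highest is taken. Among genes of at least 100 kb, 25 of 31 guidance genes at E15.5 (80.6%, against 65.9% of long genes) and 26 of 32 at E18.5 (81.2%, against 64.7%) had the higher ARID1B peak inside. Guidance genes of this class also held more ARID1B peaks per length than long genes in all. With the lists set to equal size the counts were 19 of 26 at E15.5 (73.1%, against 63.6% of all such genes) and 21 of 27 at E18.5 (77.8%, against 61.5%).

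Intragenic ARID1B peaks of at least 10-fold, above nearly every ARID1B promoter in the set, numbered 27 in 14 guidance genes at E15.5 and 32 in 15 at E18.5. They made up 4.43% and 5.37% of the intragenic ARID1B peaks of guidance genes, against 2.42% and 3.30% in all genes, and 2.51% and 3.05% of all genes held one. Among genes of at least 100 kb, 13 of 32 guidance genes (40.6%, against 16% of long genes) held one at E15.5 and 14 (43.8%, against 19.6%) at E18.5. This class sets only a lower limit on length, and its guidance genes held more ARID1B peaks per length from which a tall one can come. FOXP1 had 1 such peak in guidance genes at E15.5 (against 0.995% of all genes with one) and 0 at E18.5 (against 0.365%), and TCF7L2 had 0 at both stages (against 0.192% and 0.235%). The threshold of 10-fold and the genes named next were chosen after the values were seen.

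The Robo1 locus whose sequence is printed above, chr16:72510405-72511637 in an intron, lay 203 kb from the start of the gene and carried all 3 TRs at both stages. ARID1B stood at 15.7-fold (13.4 to 18.1) at E15.5 and 20.3-fold (17.2 to 23.9) at E18.5, FOXP1 at 10.8-fold and 7.33-fold, and TCF7L2 at 7.13-fold and 9.63-fold. The ARID1B values were 2.48 and 3.82 times those of the Robo1 promoter. A further Robo1 locus in all 6 lists, chr16:72794662-72795753, had 11.6-fold and 13.6-fold ARID1B.

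In Sema3a, whose promoter was weak, the intronic locus chr5:13420853-13422419 lay 296 kb from the start and also carried all 3 TRs at both stages. ARID1B stood at 16.6-fold (14.3 to 19.2) and 19.5-fold (16.4 to 23), which was 4.05 and 4.21 times its promoter value, FOXP1 at 7.59-fold and 5.85-fold, and TCF7L2 at 3.79-fold and 5.47-fold. In Robo2 the locus chr16:74089495-74090423, in an intron 322 kb from the start, had 14.9-fold and 15.6-fold ARID1B, 8.10-fold and 4.97-fold FOXP1, and 4.41-fold and 5.25-fold TCF7L2. These loci of Sema3a, Robo1 and Robo2 were chosen for their tall ARID1B peaks, and each list has its own background. That the ARID1B folds were the highest there does not rank the TRs.

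The tallest ARID1B peak of the set lay in Ephb1 (ENSMUSG00000032537.15, chr9:101922128-102354693, minus strand), a receptor that sorts axons at the midline. It stood 315 kb from the start at 17.2-fold (14.84 to 19.8) at E15.5 and 21.2-fold (17.9 to 24.8) at E18.5, 3.63 and 3.36 times the promoter value, and its summit fell on an exon of 1 shorter transcript. FOXP1 was at 8.99-fold and 7.03-fold there and TCF7L2 at 6.82-fold and 7.12-fold. Ephb1 also held the most loci in all 6 lists, 4 of its 27, followed by Ephb2 with 3 of 39. Unc5d had 13.0-fold and 15.3-fold ARID1B at 449 kb from its start, Epha7 12.5-fold and 14.6-fold at 82.6 kb, and Slit3 13.6-fold and 12.3-fold at 435 kb, although Slit3 had no ARID1B promoter peak at E15.5 and 3.65-fold at E18.5. Dcc had 11.6-fold and 12.3-fold at 269 kb.

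**Figure D4:**
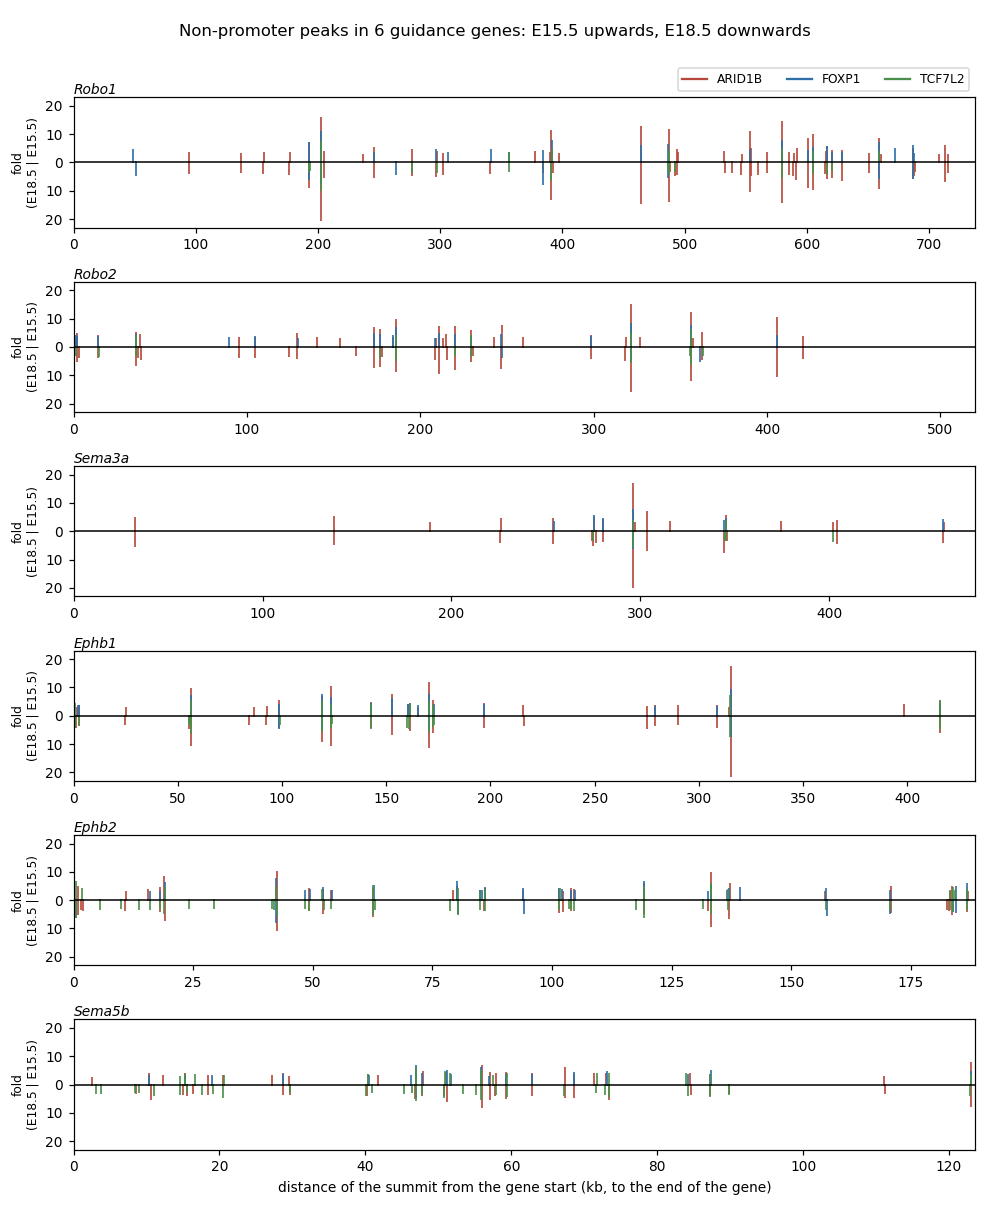
Summits of intragenic peaks in 6 guidance genes by distance from the gene start in kb (x axis), with fold enrichment drawn upwards for E15.5 and downwards for E18.5 (y axis) and coloured by TR. The highest ARID1B peaks at E18.5 reach 20.3 in Robo1, 19.5 in Sema3a, 15.6 in Robo2 and 21.2 in Ephb1, while the peaks of Ephb2 and Sema5b are lower and closely spaced, with 1 FOXP1 peak in Sema5b at E18.5.

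Other genes had a taller promoter than gene body. Sema7a had 11.4-fold ARID1B at its promoter at E18.5 and 3.23-fold at its highest intragenic peak, and Ephb3 9.54-fold and 2.81-fold. Sema5b had 10.5-fold and 7.48-fold at E15.5. Efnb2 was tall in both places, with an intronic ARID1B peak of 11-fold and 13.3-fold beside its promoter values of 7.75-fold and 9.54-fold.

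**Figure D5:**
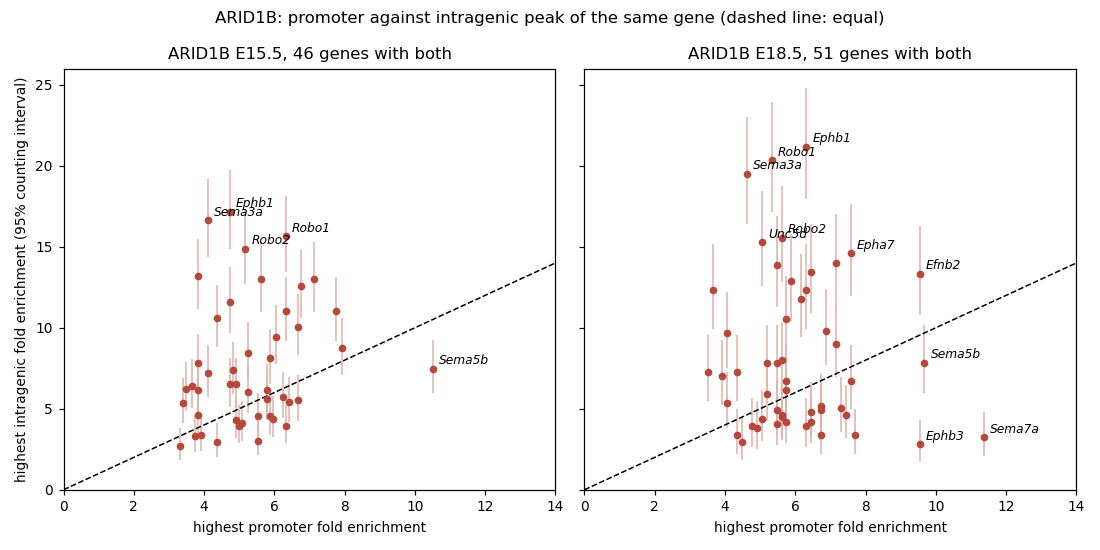
Highest intragenic (y axis, with its 95% counting interval) against highest promoter (x axis) ARID1B fold enrichment for the guidance genes that had both, 46 at E15.5 and 51 at E18.5. Points above the dashed line of equality, 29 and 28, include Ephb1, Sema3a, Robo1 and Robo2, and Sema7a and Ephb3 lie far below it at E18.5.

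Short motifs were counted in the 200 bp around each summit, on both strands. At promoters the forkhead core TGTTTAC was present under 1 of 64 FOXP1 summits at E15.5 (1.56%, against 1.16% of all bound promoters) and 0 of 57 at E18.5 (against 1.25%). Under ARID1B summits it was present at 1 of 61 (1.64%, against 1.33%) and 3 of 62 (4.84%, against 1.21%), the earlier stage first. Under TCF7L2 summits it was present at 2 of 60 (3.33%, against 0.910%) and 0 of 64 (against 1.02%). The TCF/LEF core ATCAAAG was present under 0 of 60 TCF7L2 summits at E15.5 (against 1.16%) and 1 of 64 at E18.5, at Nrp2 (1.56%, against 1.20%). Under intragenic ARID1B peaks the E-box CAGATG was present in 218 of 610 (35.7%, against 34.1% in all genes) at E15.5 and in 208 of 596 (34.9%, against 33.1%) at E18.5. Among those of at least 10-fold it was present in 15 of 27 (55.6%, against 57.3%) and 18 of 32 (56.2%, against 54.8%). The E-box CAGCTG was present in 10 of 27 (against 30.5%) and 12 of 32 (against 31.2%) of the latter. The share with CAGATG was thus higher among tall intragenic ARID1B peaks than among all of them, in guidance genes and in all genes, and for CAGATG guidance genes stayed close to all genes in both classes. Under intragenic peaks of FOXP1 the forkhead core was present in 10 of 419 at E15.5 (2.39%, against 3.20%) and 0 of 87 at E18.5 (against 3.36%), and under those of TCF7L2 the TCF/LEF core was present in 4 of 196 (2.04%, against 2.55%) and 13 of 379 (3.43%, against 3.02%). The homeodomain core TAATTA, described after its values were seen, had a higher share in guidance genes than in all genes in each of the 6 lists, which share many loci. At E15.5 it was present under 11.6% of intragenic ARID1B peaks (against 9.87%), 11.9% of FOXP1 peaks (against 7.76%) and 7.65% of TCF7L2 peaks (against 5.75%). At E18.5 it was present under 13.9% (against 9.91%), 9.20% (against 4.51%) and 10.0% (against 5.36%), in the same order.

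For the wider pathway, 59 of 60 listed genes of downstream signalling, such as Srgap, Dpysl (CRMP), Mical, Nck and kinase genes, and of further guidance systems were autosomal. Promoter peaks were present in 57 (ARID1B), 58 (FOXP1) and 57 (TCF7L2) of them at E15.5 and in 56, 58 and 58 at E18.5, and 55 were bound in all 6 lists (53.9% of all genes). Fes, a kinase of semaphorin signalling, had no promoter peak. Dscam, a netrin receptor, lacked ARID1B at E18.5, Ablim3, an actin-binding protein, lacked ARID1B at E15.5, and Ngef, an ephexin that acts downstream of EphA4, lacked ARID1B at E18.5 and TCF7L2 at E15.5. FOXP1 enrichment at these promoters had a median of 11.2-fold at E15.5 and 8.65-fold at E18.5, which was near the medians of all genes and above those of the ligands and receptors.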

How the data were processed

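The cortex of wild-type embryos gave 12 ChIP and 12 input libraries for the 3 TRs. Per the study's methods and the submitters' processing notes, the authors aligned reads to mm10 with BWA 0.7.15, kept mapping quality of 30 or more and called narrow peaks on merged replicates against input with MACS2 2.2.7 at a q threshold of 0.01 and a constant background. Whether duplicate reads were removed was not stated. The deposited lists give for each peak a fold enrichment (a ratio of summit pileup to background) and a −log10 p-value and −log10 q-value, and no counts. Because fold and p are tied by the Poisson model, the background and the reads at each summit were recovered (100% of pairs within 0.01 in −log10 p), and 95% exact Poisson intervals were set on folds. They cover counting error only, and reads are not independent molecules.

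Overlaps were computed with Python 3.11.15, pandas 2.3.3, numpy 2.4.6, scipy 1.17.1 and pysam 0.24.0 against GENCODE vM21 (GRCm38), and sequences were read from the RefSeq GRCm38.p6 genome. The code was tested on simulated data. Promoter peaks shared at least 1 base with the 2000 bp upstream of any TSS, and guidance genes were set beside all 20807 autosomal protein-coding genes. No test was made, since each TR and stage has 1 list. Genes were named by rule: the 3 highest promoters of each list, the leader of each family, genes lacking a promoter peak in a list or having one at 1 stage only, the genes with most and densest intragenic loci, and the cortical, endothelial and pathway sets. Motifs other than the forkhead and TCF/LEF cores at promoters, the 10-fold threshold, genes of at least 100 kb and outermost start sites were added after seeing the data. Of 9 short strings searched under intragenic peaks 5 are described, namely the forkhead core TGTTTAC, the TCF/LEF core ATCAAAG, the E-boxes CAGATG and then CAGCTG, and the homeodomain core TAATTA. The others were the general E-box CANNTG, which contains both of these, the NFI half-site TTGGCA, the SOX core ACAATGG and the AP-1 site TGANTCA. Longer strings searched earlier are not shown. The members and lists were chosen with earlier results of these data known. Alternatives tried were a −log10 p of at least 15, lists cut to the 24872 peaks of the shortest, other promoter windows, summits in place of peaks, coding transcripts only, other rules for gene bodies and a motif window of 100 bp.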

Additional observations from a re-analysis of the deposited data

How the results depend on the processing

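No paired analysis was possible because each TR and stage has 1 list, and for the same reason no replicate could be left out. Of 197 values under the alternatives, 150 stayed within 1.5 times the reported count, or a median within its 95% interval over genes, and 47 moved. With lists of equal size the order of the stages turned for genes with a promoter peak of FOXP1 (56 and 57, the earlier stage first) or of all 3 TRs (41 and 46), for FOXP1 promoter peaks at 1 stage only, for TCF7L2 intragenic peaks, for genes with an intragenic peak of ARID1B (37 and 34), FOXP1 (35 and 39) or TCF7L2 (41 and 40), and for genes with a taller ARID1B peak inside (19 and 21), and was level for TCF7L2 promoter peaks (58 and 58). It also turned for genes with an intragenic ARID1B peak at a −log10 p of at least 15 (38 and 34). The same held for genes with promoter peaks of all 3 TRs with the summit required in the promoter (44 and 48). A minimum −log10 p of 15 left promoter peaks of FOXP1 at E18.5 at 37 genes, of all 3 TRs at 38 (E15.5) and 33 (E18.5), and in all 6 lists at 30. Genes with a promoter peak at 1 stage only became 5 for ARID1B at E18.5, 20 for FOXP1 at E15.5, and 1 and 11 for TCF7L2 at E15.5 and E18.5. Intragenic peaks fell, in the order ARID1B, FOXP1 and TCF7L2, to 209, 115 and 31 at E15.5 and to 180, 10 and 68 at E18.5, the genes with one to 20 (TCF7L2, E15.5) and to 34, 8 and 30 (ARID1B, FOXP1 and TCF7L2, E18.5), and loci of all 3 TRs to 18 and 4. Median promoter folds rose to 5.79 and 6.10 for ARID1B, 6.87 for TCF7L2 at E15.5 and 7.91 for FOXP1 at E18.5. With every list cut to the size of the shortest, intragenic peaks were 189, 111 and 127 at E15.5 and 177 (ARID1B) and 124 (TCF7L2) at E18.5, genes with an ARID1B one at E18.5 were 34, and loci of all 3 TRs were 54 and 23. Median ARID1B folds were 5.84 and 6.10, genes with a taller ARID1B peak inside were 19 at E15.5, and genes bound at E15.5 or E18.5 only were 6 (ARID1B, E18.5), 2 and 3 (FOXP1) and 2 and 2 (TCF7L2). With the summit required in the promoter the last counts were 5 and 6 (ARID1B), 3 (FOXP1, E18.5) and 2 and 7 (TCF7L2), and with 500 bp downstream included ARID1B had 1 at E15.5. A motif window of 100 bp left 0 FOXP1 summits with the forkhead core at E15.5. The cause was not tested beyond what each alternative removes by construction.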
